A study of Bos grunniens with 6 samples.

Results

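*PKDREJ* (ENSBGRG00000001224) and *SLC9A3* (ENSBGRG00000021848) are 2 of the 20953 genes in the expression table of yak testis, and together they carried 9 of the 16318 m6A peaks compared between juvenile and sexually mature yaks. They were chosen because each carries peaks whose methylation changed in opposite directions, so those changes are given as a description and not tested. Testicular tissue came from 3 yaks of 6 months, before sexual maturity (Y6M), and from 3 yaks of 30 months (Y30M), all healthy males. Poly(A) RNA of each yak was fragmented, and one portion was immunoprecipitated with an antibody against m6A, while the input library shows expression. Expression is given as FPKM of the 6 input libraries, the fragments of a gene scaled by transcript length and by the mapped reads of its library.

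*PKDREJ* encodes the polycystin family receptor for egg jelly, a membrane protein of the sperm head that belongs to the polycystins and is known for its part in the timing of the acrosome reaction, the release of the acrosomal content by which a sperm prepares to meet the egg. *SLC9A3* encodes NHE3, a sodium/proton exchanger that takes up sodium and gives off protons across the plasma membrane. NHE3 is best known from the apical membrane of kidney, gut, efferent duct and epididymal epithelium, and whether the transcripts measured here came from germ cells or from such an epithelium cannot be read from whole tissue. N6-methyladenosine (m6A) is a methyl mark on adenosines of mRNA that is placed by a METTL3 and METTL14 complex and bound by YTH proteins.

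Expression of *PKDREJ* was low in every juvenile testis and moderate in every mature one. The 3 juvenile yaks, in the order of their replicate numbers, had 0.162, 0.295 and 0.314 FPKM, and the 3 mature yaks had 15.6, 11.5 and 14.3 FPKM. The groups did not overlap, and the lowest mature library was far above the highest juvenile one. The group means were 0.257 ± 0.0829 and 13.8 ± 2.10 FPKM (SD, n = 3 each), a ratio of 53.7. On log2(FPKM + 1) the log2 fold change was 3.55 (standard error 0.27, limma, Benjamini-Hochberg adjusted p = 7.74e-05). Among the 19477 genes tested, 27.6% were called higher in Y30M (unadjusted p up to 0.05, with a change of 1.5-fold or more), 19.0% were called lower, and 32.2% had all Y30M values above all Y6M values. The log2 fold change of *PKDREJ* was exceeded by 5.06% of the genes tested.

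*SLC9A3* was scarcely detected in the juvenile testis and was present in all mature libraries. The juvenile yaks had 0.0744, 0.120 and 0.0150 FPKM in replicates 1, 2 and 3, against 5.51, 4.05 and 2.34 FPKM in the mature yaks. The groups did not overlap here either, although replicate 3 was the lowest library in both of them. Averaged by age, Y6M had 0.0698 ± 0.0527 FPKM (SD, n = 3) and Y30M 3.97 ± 1.59 FPKM (SD, n = 3), which is a ratio of 56.8. The log2 fold change on log2(FPKM + 1) was 2.16 (standard error 0.26, limma, adjusted p = 5.99e-04), and 10.6% of the genes tested had a larger one. By the ratio of means, without a pseudocount, 5.16% of the genes above 0 in Y6M exceeded *PKDREJ* and 5.03% exceeded *SLC9A3*. With a pseudocount of 0.1 in place of 1 the log2 fold change of *SLC9A3* was 4.55, because the added constant is large beside the juvenile values. In whole tissue, a smaller share of the cells that express a gene and less RNA per cell cannot be told apart.

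**Figure D1:**
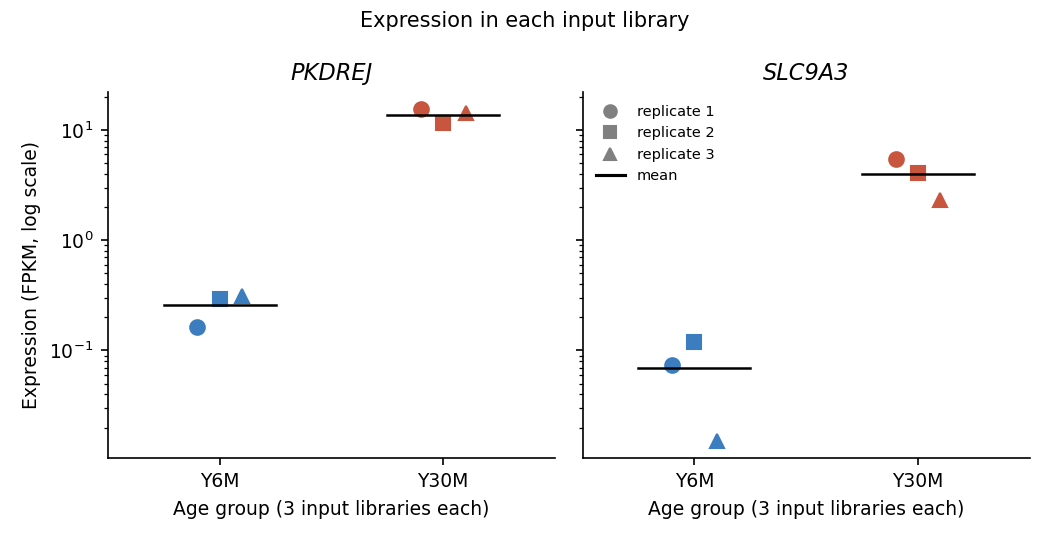
Expression of PKDREJ (left) and SLC9A3 (right) in FPKM on a log axis, with 1 point for each of the 3 input libraries of Y6M (6 months) and Y30M (30 months) and a line at the group mean. PKDREJ lies at 0.162 to 0.314 FPKM in Y6M and at 11.5 to 15.6 FPKM in Y30M, and SLC9A3 at 0.0150 to 0.120 and 2.34 to 5.51 FPKM.

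The low FPKM values are multiples of what 1 fragment is worth, so the fragments behind each value could be read back as the smallest whole numbers that fit all 6 libraries. They are minima, since a common multiple of the 6 numbers would fit as well. For *PKDREJ* they were 30, 62 and 48 fragments in Y6M and 3177, 2497 and 3032 in Y30M. For *SLC9A3* they were 6, 11 and 1 fragments in Y6M and 488, 383 and 217 in Y30M. By these smallest numbers, the juvenile libraries together held 18 fragments of *SLC9A3* and 140 of *PKDREJ*.

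Between yaks of the same replicate number, the ratio of Y30M to Y6M was 96.5 (95% exact counting interval 67.4 to 143), 39.0 (30.3 to 51.1) and 45.4 (34.1 to 61.7) for *PKDREJ*. For *SLC9A3* it was 74.1 (33.8 to 203), 33.7 (18.6 to 68.1) and 156 (27.7 to 6184). The pairs join different yaks by replicate number alone, and the sample labels give no pairing between the ages. The intervals cover counting error only and take the smallest numbers of fragments, of which the last pair has 1 in its juvenile library. Both genes had a higher ratio in the first pair than in the second, with intervals that did not overlap for *PKDREJ* and overlapped for *SLC9A3*, and the intervals of the 2 genes overlapped in every pair.

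Per length, *PKDREJ* was above *SLC9A3* in all 6 libraries. Dividing the FPKM of one by that of the other gave 2.18, 2.46 and 20.9 for the juvenile replicates 1, 2 and 3, and 2.84, 2.84 and 6.09 for the mature ones. The ratio was highest in replicate 3 at both ages, and the ages overlapped. No test is given, since 3 against 3 allows no p under 0.1 and 1 of the juvenile ratios rests on 1 fragment of *SLC9A3*. In their libraries, *PKDREJ* stood above 13.4 to 17.6% of the genes detected in Y6M and 63.7 to 65.2% of those in Y30M, and *SLC9A3* above 0.596 to 10.6% and 34.0 to 45.6%.

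The transcript of *PKDREJ* carried 6 compared peaks on the minus strand of chromosome 5 of LU_Bosgru_v3.0, within 5195 bp. From 5′ to 3′, peak 1 (chr5:125562314-125562964, 651 bp) had a log2 fold change in methylation of 0.36 in Y30M against Y6M. Peak 2 (chr5:125561914-125562114, 201 bp) had 1.01, peak 3 (chr5:125561123-125561373, 251 bp) 2.69 and peak 4 (chr5:125560273-125560773, 501 bp) 2.62. Peak 5 (chr5:125558569-125559223) had -3.27 and consisted of 2 exon blocks of 147 and 304 bp with 204 bp between them. Peak 6 (chr5:125557770-125558070, 301 bp) had 0.50. The direction thus turned from higher to lower between peaks 4 and 5, which lie 1049 bp apart, and back to a small positive value 498 bp further on. The thresholds for a differentially methylated peak (DMP), a p up to 0.05 together with a change of 1.5-fold or more, were passed by peaks 2, 3 and 4 as hypermethylated and by peak 5 as hypomethylated. Among all compared peaks, 10.2% were hypermethylated and 4.34% hypomethylated, and since the genes were chosen by these calls nothing is read from their counts.

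*SLC9A3* carried 3 compared peaks on the minus strand of chromosome 23, spread over 36753 bp of the genome. Peak 1 (chr23:7743702-7770410) was made of 3 exon blocks of 87, 303 and 56 bp across an intron of 24558 bp, and its log2 fold change was -0.39. Peak 2 (chr23:7740881-7741517) had blocks of 16 and 134 bp and a log2 fold change of -0.96. Peak 3 (chr23:7733658-7734065) had blocks of 1 and 149 bp and a log2 fold change of 2.50. The 2 peaks nearer to the 5′ end were thus lower in Y30M and the 3′ one higher, and peaks 2 and 3 were DMPs. A fold change of 1.5 is 0.58 on the log2 scale, and the DMPs nearest to it were those at -0.96 in *SLC9A3* and 1.01 in *PKDREJ*. The peaks short of it lay at 0.50 and 0.36 in *PKDREJ* and -0.39 in *SLC9A3*. Which of these peaks were DMPs was set by the fold change and not by the p. The genes were chosen by these calls, so nothing is read from this.

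**Figure D2:**
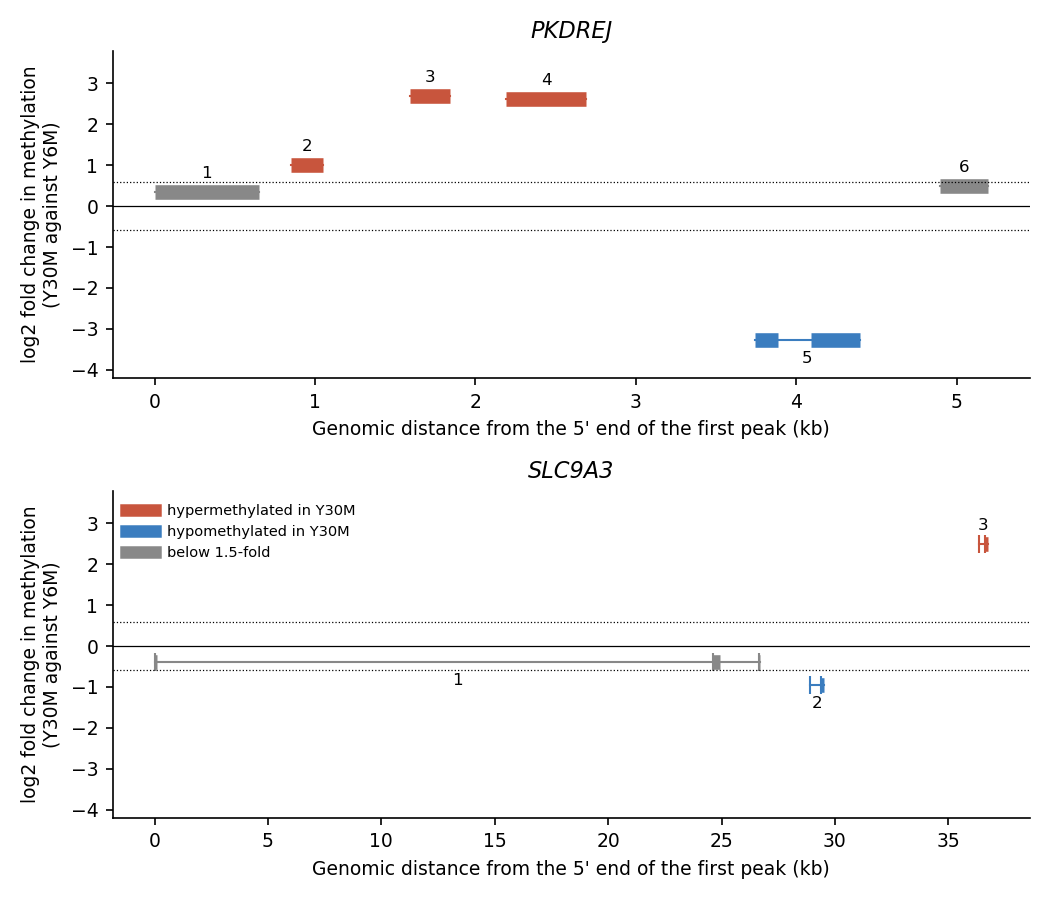
Compared m6A peaks of PKDREJ (top) and SLC9A3 (bottom) from 5′ to 3′, by genomic distance in kb from the 5′ end of the first peak (horizontal) and log2 fold change in methylation of Y30M against Y6M (vertical). Thick bars are exon blocks (ticks mark the 5′ end of each block in SLC9A3), thin lines the introns between them, and dotted lines a fold change of 1.5. PKDREJ runs from 0.36 up to 2.69 and 2.62, down to -3.27 and back to 0.50, and SLC9A3 from -0.39 and -0.96 to 2.50.

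Enrichment over input, taken over both ages together, differed among the peaks. In *PKDREJ* it was 2.95, 2.53, 3.31, 4.65, 3.40 and 2.77-fold from peak 1 to peak 6, against a median of 2.31 over all compared peaks. Peak 4 exceeded 98.3% of all compared peaks, and peak 2, the lowest of the gene, exceeded 59.0%. In *SLC9A3* it was 2.24, 1.48 and 2.0-fold, so that all 3 lay below the median of all peaks and peak 2 exceeded only 9.31% of them.

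None of the 9 peaks was significantly enriched over input by itself. The FDR of the enrichment was 1 for each of them, whereas 69.0% of all compared peaks had an FDR of at most 0.05. High folds in *PKDREJ* and an FDR of 1 thus stood side by side. Of the 4177 genes with at least 2 peaks 932 (22.3%) had no enriched one, and of the 118 such genes with at most 0.3 FPKM in Y6M 81 (68.6%) had none. Of the 56 genes with 6 peaks 7 had none, as had 205 of the 1012 genes with 3 peaks.

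In the list of 15116 peaks called in Y6M alone, no peak lay within the stretch covered by the peaks of either gene. The nearest was 18817 bp away from *PKDREJ* and 8606 bp away from *SLC9A3*. By contrast, 75.4% of all compared peaks overlapped a Y6M peak by at least 1 bp. The processed Y30M peak list used here covered chromosomes 1 and 2, so peaks called in Y30M were not analysed for these genes, which lie on chromosomes 5 and 23.

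Methylation is measured against the input libraries, so the juvenile fragments counted above stand behind the juvenile side of each peak. In Y6M the smallest numbers of fragments average 7.78 per peak and library for *PKDREJ* and 2 for *SLC9A3*. These averages take all fragments of a gene to lie in its peaks, and the number that did is unknown. In Y30M the same averages are 484 and 121. The number of immunoprecipitated reads on the peaks is unknown, and the part of this depth in the opposite changes was not tested. Peak 3 of *SLC9A3* is 1 of 45 peaks that share the lowest p in the table, 36 of which had an enrichment FDR above 0.05.

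Across the whole table, the share of peaks with these features varied with the juvenile level of the gene. *SLC9A3* falls among the 156 peaks on genes with a mean of at most 0.1 FPKM in Y6M, of which 28.2% were enriched at an FDR of at most 0.05, 12.2% overlapped a Y6M peak and 44.2% were DMPs. *PKDREJ* falls among the 340 peaks on genes at 0.1 to 0.3 FPKM, of which 31.8% were enriched, 10.0% overlapped a Y6M peak and 29.4% were DMPs. Of the 4998 peaks on genes at 3 to 10 FPKM, 74.6% were enriched, 82.4% overlapped a Y6M peak and 16.0% were DMPs. At the other end, of the 514 peaks on genes above 100 FPKM, 33.9% were enriched, 60.3% overlapped a Y6M peak and 4.67% were DMPs, so a low share of enriched peaks was found at both ends. The SD of the log2 fold change over peaks was 1.13, 0.99, 0.50 and 0.31 in these classes. Hypermethylated DMPs made up 26.9, 24.4, 10.0 and 3.70% of the peaks, and hypomethylated DMPs 17.3, 5.0, 5.96 and 0.973%. In the classes at 0.3 to 1, 1 to 3, 10 to 30 and 30 to 100 FPKM, hypomethylated DMPs made up 2.67, 3.21, 4.24 and 1.38%. Their share in the class of *PKDREJ* was thus under that at 3 to 10 FPKM and over those of the other higher classes.

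DMPs in both directions were found on 64 genes, *PKDREJ* and *SLC9A3* among them. They were 1.53% of the 4177 genes with at least 2 peaks, and 9 of the 118 such genes (7.63%) with at most 0.3 FPKM in Y6M. On 16 of the 64 genes no peak was enriched at an FDR of at most 0.05, and on 13 none overlapped a Y6M peak. Both genes belong to each of these groups. They were chosen for DMPs in both directions and are counted in these shares, which are given as a description alone. Of the genes with exactly 6 peaks 5 had DMPs in both directions, and of those with exactly 3 peaks 22 had them.

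**Figure D3:**
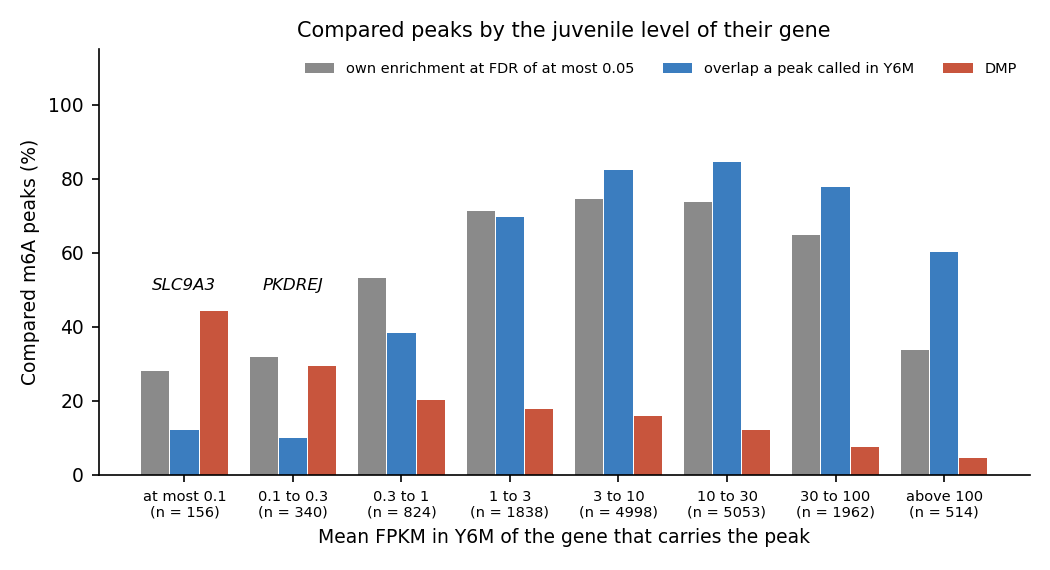
Share (%) of compared m6A peaks that were enriched over input with an FDR up to 0.05 (grey), that overlapped a peak called in Y6M (blue) and that were DMPs (red), by the mean FPKM in Y6M of the gene that carries the peak, with the number of peaks under each class. In the classes of SLC9A3 and PKDREJ 28.2 and 31.8% were enriched and 44.2 and 29.4% were DMPs, against 74.6 and 16.0% at 3 to 10 FPKM and 33.9 and 4.67% above 100 FPKM.

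Among related genes, gene names were available for 2147 gene IDs, through tables that list changed peaks and genes, so the members found are partly chosen by their change. Of the 8 polycystin genes looked for, *PKDREJ* was the one found. Of 13 genes of the SLC9 exchanger family 3 were found, and 2 were called higher and 1 lower in Y30M, where 27.6% and 19.0% of all genes tested were. *SLC9C1*, the exchanger specific to sperm, was listed at 0, 0 and 0.0239 FPKM in the juvenile libraries and reached 4.71, 3.65 and 14.5 FPKM in the mature ones. Its log2 fold change was 2.88 with a standard error of 0.45 (limma, adjusted p = 0.00179). It was undetected or nearly so in juveniles, as *SLC9A3* was, but in Y30M it was highest in replicate 3, where *SLC9A3* was lowest. *SLC9A9*, an exchanger of endosomes, had 2.98, 1.91 and 4.55 FPKM in juveniles but 0.417, 0.616 and 0.567 FPKM in mature yaks, and its log2 fold change was -1.39 (standard error 0.27, adjusted p = 0.00506). It thus ran opposite to *SLC9A3*. None of 21 genes for partners and regulators of NHE3 was found.

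Of 20 sperm ion channels and transporters 2 were found, and they moved in opposite directions. *CATSPERD*, an auxiliary subunit of the CatSper calcium channel of the sperm tail, had 6.16 ± 0.868 FPKM in juveniles and rose to 19.2 ± 0.499 FPKM in mature yaks (limma, adjusted p = 0.00144), a ratio of 3.11. *ATP2B4*, a plasma membrane calcium pump, had 23.0 ± 2.29 FPKM in juveniles and fell to 13.5 ± 2.81 FPKM in mature yaks (limma, adjusted p = 0.0355, log2 fold change -0.74). That call was lost when FPKM were rescaled to 1 common sum per library (TPM, -0.57) and without Y6M replicate 2 (-0.74), Y6M replicate 3 (-0.67) or Y30M replicate 2 (-0.58), with the direction kept. Of 36 acrosome and sperm-egg membrane genes 2 were found and both were called higher in Y30M, as were 27.6% of all genes tested. Among the genes with a name, from which those found come, 59.4% were called in either direction, against 46.6% of all genes tested. *ACRBP*, which binds the acrosomal protease acrosin, rose from 3.52 ± 1.06 to 189 ± 66.0 FPKM, a ratio of 53.8 that is close to those of *PKDREJ* and *SLC9A3* at a higher level. *TMEM81*, a sperm membrane protein, rose from 0.827 ± 0.306 to 18.5 ± 3.84 FPKM, a ratio of 22.4 (SD, n = 3 each). Of 12 writers, erasers and readers of m6A, the reader *YTHDF2* was found. It had 19.1 ± 2.13 FPKM in juveniles, 26.9 ± 3.21 FPKM in mature yaks and a log2 fold change of 0.47 (SE 0.20, limma, adjusted p = 0.102), which did not pass the thresholds but did with TPM (0.64).

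**Figure D4:**
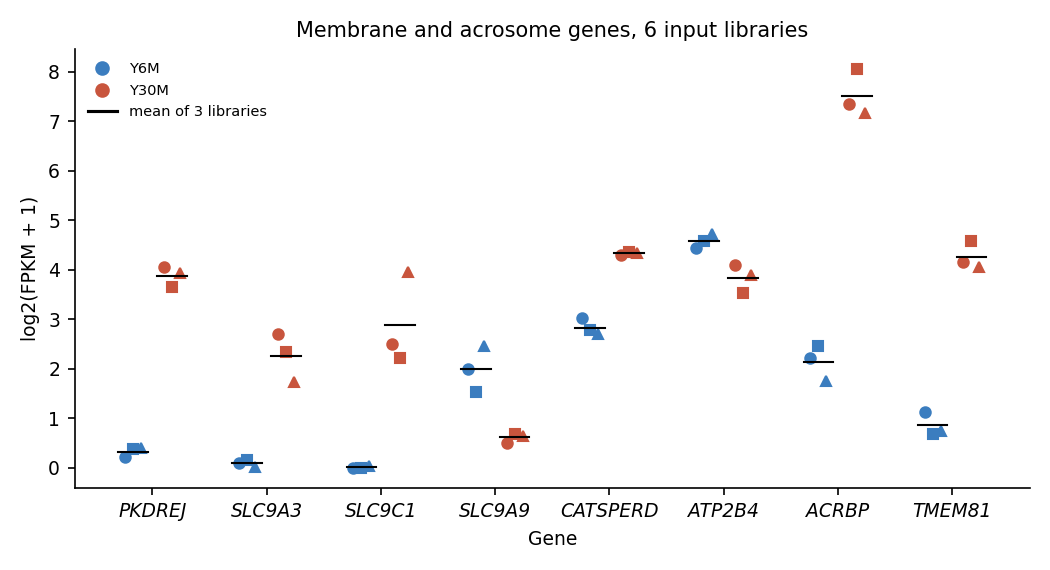
Level of PKDREJ, SLC9A3, the other exchangers SLC9C1 and SLC9A9, the channel subunit CATSPERD, the calcium pump ATP2B4 and the acrosome and sperm membrane genes ACRBP and TMEM81 as log2(FPKM + 1), with 1 point per input library (Y6M blue, Y30M red; circle, square and triangle for replicates 1, 2 and 3) and a line at the mean of 3. The log2 fold change is 3.55 for PKDREJ, 2.16 for SLC9A3 and 2.88 for SLC9C1, and it is below 0 for SLC9A9 (-1.39) and ATP2B4 (-0.74).

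Cell type markers are given by their summed levels, since 59.4% of the genes with a name were DEGs at these thresholds against 46.6% of all genes tested. The spermatid marker found (1 of 18), *SPATA18*, summed to 0.0496 to 0.450 FPKM in Y6M and 47.3 to 232 FPKM in Y30M. The 2 spermatocyte markers found of 12 summed to 8.47 to 28.0 and 13.2 to 68.0 FPKM, and *SYCP3* rose while *HORMAD1* overlapped between the ages. The 3 Sertoli cell markers of 12 fell from 108 to 125 FPKM down to 25.7 to 45.3 FPKM, the Leydig cell marker (1 of 9) from 34.4 to 67.3 down to 1.44 to 5.37 FPKM, and the 3 endothelial markers of 5 from 16.2 to 25.7 down to 3.94 to 7.46 FPKM, although *EMCN* among them (log2 fold change -0.86) lost its call under 6 of 13 alternatives, among them TPM (-0.77) and leaving out Y6M replicate 3 (-0.54), Y30M replicate 1 (-0.80) or Y30M replicate 2 (-0.67). The macrophage marker (1 of 5) and the peritubular myoid marker (1 of 6) rose, to 17.2 to 38.8 and 4.77 to 13.4 FPKM. The myoid marker lost its call without Y6M replicate 2, with the direction kept (log2 fold change 1.08). For spermatogonia (10 genes) and red blood cells (5 genes) none was found.

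Of 16 genes listed for efferent duct and epididymis, tissues in which NHE3 is abundant, *DEFB123* was found. This defensin had 0.866, 2.14 and 0.840 FPKM in the juvenile yaks against 63.1, 45.7 and 59.3 FPKM in the mature ones. It was called higher in Y30M, as were *SLC9A3* and 27.6% of all genes tested. Within Y30M its lowest library was replicate 2 and that of *SLC9A3* replicate 3. The part of duct epithelium or of any other cell type in the levels of *PKDREJ* and *SLC9A3* was not tested.

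The patterns most like those of the 2 genes were sought among 2000 named genes with a mean of at least 1 FPKM, by Pearson's r of log2(FPKM + 1) over the 6 libraries. For *PKDREJ* they were *PCDHB1* (r = 0.999), a protocadherin, *TMOD1* (0.997), which caps actin filaments, *CA9* (0.997), a membrane-bound carbonic anhydrase, *CIT* (0.997), a kinase of cytokinesis, and *WNT10B* (0.997), a secreted ligand. *PCDHB1* was nearest to it in mature level but lower in juveniles, at 0.0484 to 0.0550 FPKM in juveniles, then 14.4, 9.15 and 13.7 FPKM in mature yaks. It had the same order of the libraries within Y30M, which its choice by r favours. For *SLC9A3* they were *SMARCA4* (0.997), a chromatin remodeller, *NIP7* (0.997), a ribosome assembly factor, *SLC24A1* (0.996), a sodium/calcium exchanger, *TULP4* (0.995) and *UPF1* (0.995), a helicase of mRNA decay.

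*SLC24A1* was the one of these 5 with a low juvenile level, 0.330, 0.330 and 0.270 FPKM, and it reached 12.2, 11.4 and 6.07 FPKM in Y30M. In all 5 genes Y30M replicate 3 was the lowest of the mature libraries, as in *SLC9A3*. They were picked by r over these same libraries, so this shared order is part of the choice and no further likeness. The coefficients describe 6 libraries that fall into 2 ages, with the depth and the cells of a library shared by all its genes, and an r above 0.95 was reached by 331 of the 2000 genes with *PKDREJ* and by 226 with *SLC9A3*.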

How the data were processed

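Input and m6A immunoprecipitation libraries of testis from 3 Y6M and 3 Y30M yaks, each yak being 1 replicate, were processed by the authors with Trimmomatic, SortMeRNA and HISAT2 against LU_Bosgru_v3.0. FPKM values of the input libraries were deposited by the authors, and the tool that made them is not given in the sources used here. Over the replicates of both ages, the authors' MeTDiff comparison deposited for each peak a fold enrichment over input (a ratio), log10 FDR and p values (named score here) and a log2 fold change. The log2 fold change was deposited by the authors in 2 columns of opposite sign. The sign in which positive means more methylation in Y30M was taken from DMPs on chromosomes 1 and 2, of which 49 positive and 6 negative ones overlapped only Y30M peaks, and 8 and 26 only Y6M peaks. These values of the authors' comparison chose the genes and serve as description alone. No peak value has a replicate error.

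Expression was tested on log2(FPKM + 1) with limma 3.58.1 in R 4.3.3 (moderated variances with a trend on the level), over 19477 genes above 0 in at least 1 library, without covariates. A differentially expressed gene (DEG) was called at an unadjusted p up to 0.05 and a change of 1.5-fold or more on that scale, and p-values were Benjamini-Hochberg adjusted over all genes. The script was tested on simulated data. Relative depth read from the steps of low FPKM was 0.752 to 1.07 over the input libraries, with Y30M replicate 1 set to 1, and 17326 of 18572 genes (93.3%) came out as whole fragments within 0.01. No count test was run. Samples with the same replicate number deviated together from their group means (r = 0.21, 0.28 and 0.60 over genes, against -0.47 to 0.32 for different numbers, so that the first 2 are not above every other pair). As each was over 0.1, the number was tried as a block, with the other alternatives given below.

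The genes and gene lists were chosen with earlier results of these data known. Genes named in the text were the 2 genes, all members found of the polycystin and SLC9 families, up to 4 of each other list by mean FPKM, and the 5 most alike named genes. Names came from the study's supplementary tables, which paired 2147 IDs with names. Sequences, exon numbers and UTRs were not used here.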

Additional observations from a re-analysis of the deposited data

How the results depend on the processing

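*PKDREJ* and *SLC9A3* were called higher in Y30M under each of the 13 alternatives run on each gene. With the replicate number as a block, which pairs yaks of the same number, the log2 fold changes stayed at 3.55 (standard error 0.28) and 2.16 (standard error 0.23), and the block changed no call of either gene (9909 DEGs in place of 9080). Leaving out 1 library at a time gave 3.46 to 3.67 for *PKDREJ*, 1.94 to 2.42 for *SLC9A3* and 8157 to 9090 DEGs. The pseudocount moved the fold changes most, to 5.30 and 4.55 at 0.1. Adjusted p ranged from 1.39e-06 to 9.24e-04 for *PKDREJ* and from 7.31e-05 to 0.00419 for *SLC9A3*. One of these alternatives, variances without a trend on the level, was chosen after seeing the data. At a fold change of at least 2, 4 peaks of *PKDREJ* and 1 of *SLC9A3* were DMPs, and 659 of all peaks in place of 2378. When peaks had to be enriched over input with an FDR up to 0.05, 0 peaks of *PKDREJ* and 0 of *SLC9A3* were DMPs and 1447 of all peaks, which follows from their FDR of 1. The overlap with Y6M peaks stayed at 0 when 50% of the peak had to be covered. The juvenile values have at least 140 and 18 input fragments behind them, and no peak value has a replicate error.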
